A study of Mus musculus with 4 samples.

Results

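Effector and checkpoint-positive CD8 T cells were studied in a single-cell RNA table of mouse liver tumours. A cell was taken as a member when it held at least 1 UMI (unique molecular identifier, which counts 1 captured RNA molecule) of Cd3d, Cd3e or Cd3g, of Cd8a or Cd8b1, and of at least 1 of Pdcd1, Lag3, Tigit, Havcr2, Gzmk and Gzmb, and none of Cd4, Cd79a and Siglech. This rule found 450 of the 24802 cells (1.81%, 95% exact Clopper-Pearson interval 1.65% to 1.99%), with 1510302 UMIs among them. The values of these 14 genes chose the cells, so they are given below as a description and support nothing. The cells compared with them most closely were the 373 CD8 T cells that met the same Cd3, Cd8, Cd4, Cd79a and Siglech conditions and had no UMI of the 6 choosing genes.

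The study compared tumour-bearing livers of Miz1F/F mice, which carry floxed Miz1 alleles, with those of Miz1Δhep mice, whose name denotes loss of Miz1 from hepatocytes; each group had 2 samples. All mice were C57BL/6, received the carcinogen diethylnitrosamine (DEN, 25 mg/kg) in week 2 of life and carbon tetrachloride (CCl4, 0.5 ml/kg) every week afterwards, and were killed at an age of 5 months. The labels give neither the promoter behind the deletion nor the number of mice behind a sample. The table carries 4 barcode suffixes, here called sets 1 to 4, and no source used here ties a suffix to a sample or a genotype, so no genotype was compared, the sets are not replicates of a group, and no p-value was computed.

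CD8 T cells recognise peptides on MHC class I molecules and kill target cells by releasing granules of perforin and granzymes. Under lasting antigen exposure, as in chronic infection and tumours, they take up inhibitory checkpoint receptors such as PD-1 (Pdcd1) and LAG-3 (Lag3) and lose the genes of naive and central memory cells. In the liver, CD8 T cells also take up residence in the sinusoids, where Cxcr6 is a known homing receptor.

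Members made up 6.37% of the 2574 cells of set 1 (5.46% to 7.39%), 1.17% of the 6224 of set 2 (0.920% to 1.47%), 1.49% of the 4825 of set 3 (1.17% to 1.88%) and 1.26% of the 11179 of set 4 (1.06% to 1.49%). Set 1 was high and the other 3 sets lay close together. Among CD8 T cells alone, members were 69.5% of 236, 46.5% of 157, 51.4% of 140 and 48.6% of 290 in sets 1 to 4, and set 1 was again the highest. How cells were sampled for each library is not known, and its part in these shares was not tested.

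Depth differed between sets and bears on each share of cells with a UMI. Members had a median of 3387, 775, 1966.5 and 2738 UMIs in sets 1 to 4, and the CD8 T cells with none of the 6 genes had 4298, 1063, 1056.5 and 2773. In set 2, 75.3% of the members had under 1000 UMIs. Over all cells, 373 barcode sequences occurred in more than 1 set, among them those of 6 members, and none was shared by 2 members. Intervals for shares cover counting error only.

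Many members stood close to the threshold. Exactly 1 UMI over the 6 genes was found in 130 members, at least 2 in 320 and at least 5 in 131, with a median of 3 and a maximum of 37. In 21 members each of the 3 positive conditions rested on a single UMI, and 293 had at least 2 UMIs over the Cd3 genes and at least 2 over the Cd8 genes. Just outside the rule, 81 cells met all 3 positive conditions but held Cd4 (11 cells), Cd79a (65) or Siglech (12), and 27 of these 81 held only 1 such UMI. The 373 CD8 T cells with none of the 6 genes had 0 UMIs of them by construction, and a gene missed at this depth would place a cell there.

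The label was checked against T cell genes outside the rule and against markers of other cells. Cd3g was detected in 81.3% of members, Cd8b1, the beta chain of the CD8 co-receptor of conventional CD8 T cells, in 84.4%, and Cd8a in 69.3%. The rule asked for a Cd3 gene and for Cd8a or Cd8b1, so these shares are a description and do not check the label. Of T cell receptor genes outside the rule, Trac was detected in 64.4% and Trbc2 in 90.0% of members, against 0.721% for Trac in 4713 B cells (Cd79a with Cd79b or Ms4a1, no Cd3, no Cd8), which had a median of 1523 UMIs against 2589 in members. The absence of Cd3 chose these B cells, so the contrast in Trac follows in part from that choice. Ncr1, the activating receptor of NK cells, had 2 UMIs in all members, Trdc, the delta T cell receptor constant gene, had 1, and Foxp3 and the Ly49 receptor gene Klra8 had 0. The genes just named of NK, gamma-delta and regulatory T cells were thus at or near 0, but others of these cell types were not. The Ly49 gene Klra9 had 18 UMIs in 12 members. In the 171 members with Gzmb but no Gzmk, the Ly49 gene Klra7 had 32 UMIs in 10 cells and the NK receptor gene Klrb1c 8 in 5. Tyrobp and Fcer1g, adaptor genes abundant in NK and myeloid cells, had a UMI in 20.7% and 17.8% of members. Tcrg-C2, a gamma T cell receptor constant gene, had one in 15.3%.

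Marker lists of other cells were not at 0. The 10 NK and ILC1 markers, which include Gzma, Eomes and Klre1 of CD8 effector cells, summed to 1912 to 3078 CPM in members over the 4 sets (CPM, UMIs per 1000000 UMIs of a cell, averaged over cells), against 477 to 931 in CD8 T cells with none of the 6 genes and 8085 to 16994 in NK cells; only Klra8 of the 10 was at 0. The 10 gamma-delta or type 17 markers summed to 48.8 to 241 CPM, with Trdv4, Il23r and Cd163l1 among those at 0, and the 6 CD4 or regulatory T cell markers to 79.5 to 178 CPM, with Foxp3 at 0. The 12 hepatocyte markers summed to 1055 to 10598 CPM in members and 863 to 8784 CPM in CD8 T cells with none of the 6 genes, with none at 0 in either, and Alb had a UMI in 66.9% and 72.4% of cells. The hepatocyte gene Alb was thus found at a like share in both kinds of CD8 T cell and in 69.1% of NK cells. The 10 B or plasma cell markers summed to 584 to 6965 CPM and the 13 myeloid markers to 310 to 4878 CPM in members, with none at 0. The 13 dendritic cell markers summed to 606 to 3323 CPM with none at 0, and the 12 endothelial, stromal and erythroid markers to 951 to 7638 CPM with Col1a1 at 0. The part that RNA of other cells plays in the gene values below was not tested, except where values without it are given.

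Over all members the granzyme genes were the most often detected of the choosing genes, although in set 3 Gzmk (31.9%) was under Pdcd1 and Lag3 (36.1% each). Gzmb, which encodes the granzyme that cleaves caspases in the target cell, had a UMI in 297 members (66.0%), at 65.9%, 43.8%, 68.1% and 76.6% in sets 1 to 4. Gzmk, a tryptase-like granzyme typical of early effector memory CD8 T cells, had one in 215 (47.8%), at 58.5%, 49.3%, 31.9% and 42.6%. The shallow set 2 had the lowest share with Gzmb, whereas for Gzmk set 3 was lowest. Their mean levels were 1004, 716, 693 and 1045 CPM for Gzmb and 431, 736, 295 and 300 CPM for Gzmk. In B cells, Gzmb had a UMI in 0.955% and Gzmk in 0.127% of cells. The choosing genes picked the members, so their higher shares in members, here and for the checkpoint genes below, follow from the rule.

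The sequences upstream of the start sites of Gzmb, Gzmk and of Gzma, the granzyme gene outside the rule that led the comparison below, are shown because these genes differ in which cells and sets they are detected in. They are RefSeq sequences of the 250 bases before each start on GRCm38.p6 (the assembly that mm10 denotes), read 5′ to 3′ on the gene's strand, all on the minus strand, at chr14:56262335-56262584 for Gzmb, chr13:113180966-113181215 for Gzmk and chr13:113100982-113101231 for Gzma. Capitals mark matches to the motifs searched.
Gzmb: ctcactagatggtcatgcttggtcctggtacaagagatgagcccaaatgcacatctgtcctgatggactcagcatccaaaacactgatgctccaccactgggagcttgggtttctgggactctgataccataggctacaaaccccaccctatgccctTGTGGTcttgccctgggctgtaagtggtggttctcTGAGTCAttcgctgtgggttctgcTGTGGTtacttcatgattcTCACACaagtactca
Gzmk: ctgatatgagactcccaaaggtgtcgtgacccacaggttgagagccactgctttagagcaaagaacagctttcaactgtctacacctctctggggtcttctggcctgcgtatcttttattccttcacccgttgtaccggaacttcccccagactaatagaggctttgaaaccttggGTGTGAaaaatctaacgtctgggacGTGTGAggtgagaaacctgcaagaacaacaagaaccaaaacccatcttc
Gzma: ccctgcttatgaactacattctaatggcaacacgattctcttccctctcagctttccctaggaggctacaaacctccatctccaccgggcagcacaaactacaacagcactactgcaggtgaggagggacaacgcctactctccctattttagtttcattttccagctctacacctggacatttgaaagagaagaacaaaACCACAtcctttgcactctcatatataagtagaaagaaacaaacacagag

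The motifs searched on both strands were TGTGGT (RUNX), TGANTCA (AP-1), TCACAC (T-box), TGACGTCA (CRE), AAAGGTCA (the NR4A element) and TATAAA (the TATA box), and no match overlapped another. RUNX, AP-1 and T-box factors are known regulators of effector genes in CD8 T cells. Gzmb held TGTGGT starting 93 and 34 bases before the start, TGAGTCA at 58 and TCACAC at 15. Gzmk held the T-box letters on the opposite strand, printed as GTGTGA, at 74 and 49 bases, and Gzma held the RUNX letters on the opposite strand, printed as ACCACA, at 50. Of the 32851 upstream windows of the same length in the RefSeq table, 14.05% held TGTGGT, 6.75% TGANTCA, 12.3% TCACAC, 1.55% TGACGTCA, 1.34% AAAGGTCA and 12.4% TATAAA. Distances are from the RefSeq starts used here. In the gene annotation GENCODE vM21, Gzma begins at the same place (13:113100981), but Gzmb and Gzmk begin elsewhere, at 14:56262260 and 13:113225908. The matches describe the letters of these windows and are not evidence of binding.

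Of the checkpoint genes, Pdcd1 had a UMI in 145 members (32.2%), at 46.3%, 24.7%, 36.1% and 17.7% in sets 1 to 4, and Lag3, which encodes a receptor for MHC class II, in 106 (23.6%), at 31.1%, 12.3%, 36.1% and 14.2%. Mean levels of Pdcd1 were 373, 421, 244 and 90.3 CPM and those of Lag3 214, 160, 292 and 47.9 CPM. Set 4, with a median depth close to that of set 1, was the lowest set for the level of both genes. Havcr2 (TIM-3) and Tigit were rare, in 14 (3.11%) and 7 (1.56%) members, against 0.361% and 0.0212% of B cells. Pdcd1 and Lag3 were found in 0.0637% and 0.679% of B cells.

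**Figure D1:**
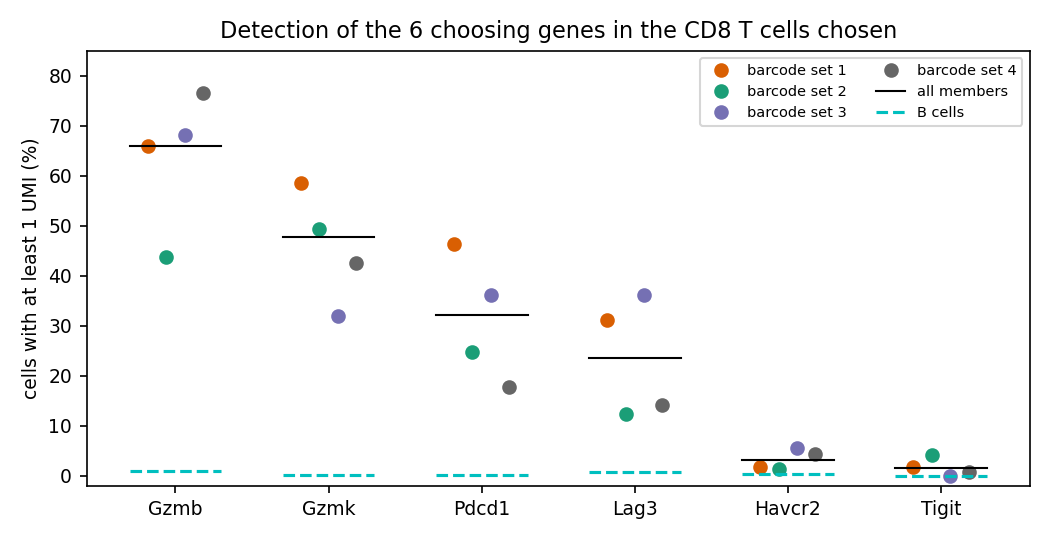
Share of the 450 CD8 T cells chosen that held at least 1 UMI of each of the 6 choosing genes (y axis, percent), with 1 point per barcode set, a black line for all members and a dashed line for 4713 B cells. Gzmb was detected most often (66.0% of members) and Tigit least often (1.56%); these genes chose the cells.

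By the 6 genes together, 244 members held a granzyme but no checkpoint UMI, 142 held both and 64 held a checkpoint UMI alone. The most common combinations were Gzmb alone (113 members), Gzmk with Gzmb (70), Gzmk alone (61), Pdcd1 alone (28) and Pdcd1, Lag3, Gzmk and Gzmb together (21). Detection of 1 gene beside another was read over all 823 CD8 T cells, so that the choice of members did not fix it. Lag3 had a UMI in 39.3% of the Pdcd1-positive cells and in 7.23% of the others, and the share was higher beside Pdcd1 in all 4 sets (46.1% against 10.0%, 11.1% against 5.04%, 42.3% against 13.2% and 36.0% against 4.15%). Gzmk had a UMI in 42.4% of Gzmb-positive cells and in 16.9% of the others, also higher in all 4 sets. With each cell thinned to 1000 UMIs and shallower cells left out, the shares were 24.2% against 4.29% for Lag3 beside Pdcd1, and 24.8% against 9.34% for Gzmk beside Gzmb. Pdcd1 and the granzymes did not go together in every set. Gzmb had a UMI in 64.5% of Pdcd1-positive and 36.9% of Pdcd1-negative cells of set 1, but in 16.7% and 20.9% in set 2, and Gzmk in 16.7% and 23.7% there.

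Members were set against CD8 T cells with none of the 6 genes to describe what else differed between them. Gzma, the costimulatory receptor gene Tnfrsf9, the integrin gene Itga1 and the cell cycle genes Top2a and Ccnb2 were among the genes called higher in members, and genes of naive and central memory T cells made up 7 of those called lower. A gene was called when its level plus 10 CPM differed at least 2-fold, the same way, in every set used. Sets with at least 20 cells of both kinds were used, and genes whose mean was 20 CPM or more were tested. Of the genes named here and below, Itga1, Ccnb2, Ube2c, Hells, Dapk2, Gm45716 and Mcub.1 passed this filter only through the members. Itga1 had 42 UMIs in members and 15 in the other cells, and Ccnb2 83 and 2. With a filter at 100 CPM, 1 gene was called higher and 4 lower. Of 4751 genes tested over 4 sets, 15 were called higher (0.316%) and 9 lower (0.189%). The median log2 ratio over all genes was 0.19 rather than 0 (0.13 to 0.21 over sets). With it set to 0 in each set the calls were 6 higher and 10 lower. Itga1, Ccnb2, Hells, Dapk2, Gm45716 and the transcription factor gene Zeb2 were then no longer called. With the UMIs of all cells summed the calls were 20 higher and 6 lower. Of the 24 genes called, 5 were also called when cells were thinned to 1000 UMIs before the rule was applied, which gave 107 calls over 3 sets. Values below are medians over sets of the log2 ratio (level + 10 CPM), with the lowest and highest set.

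Genes of naive and central memory cells were lower as a group. Of 17 tested in that list, 7 were called lower (background 0.189%), 13 were lower in every set (5.62% of all genes were) and none was higher in every set, with a list median of -1.23 (-1.48 to -1.05). Ccr7, the receptor that guides T cells into lymph nodes, stood at 66.9, 24.7, 47.7 and 98.8 CPM in members against 328.8, 248.1, 230.1 and 450.1 CPM, a log2 ratio of -2.11 (-2.89 to -2.06). Il7r, the survival receptor of resting T cells, stood at 136.6, 27.6, 8.36 and 95.02 CPM against 410.4, 196.6, 214.3 and 377.9 CPM (-2.17, -3.61 to -1.52). No set of members reached the lowest set of the other cells for either gene. The share of all genes tested whose sets separate in this way was not counted, here and below. The transcription factor genes Lef1, Tcf7 and Satb1 were lower at -2.17 (-2.36 to -1.27), -1.32 (-1.84 to -1.09) and -1.56 (-3.60 to -1.23). These factors maintain the naive and memory state. Dapl1 of the list was called lower too, and Rgs10 (-1.89) and Actn1 (-1.56, an actin crosslinker), outside the list, were called as well. The members of the list with the highest levels were not called. Ly6c2 was at -0.20 (-0.60 to 0.20), Bcl2 at -0.17, Klf2 at -0.74 (-1.31 to -0.33) and Foxp1 at -0.25 (-0.53 to 0.31).

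Among cytotoxic genes outside the rule, Gzma was the only one called of 12 tested (background 0.316%), and 7 of the 12 were higher in every set (19.7% of all genes were). Gzma stood at 1416, 1369, 1806 and 2012 CPM in members of sets 1 to 4 and at 80.1, 605.6, 553.0 and 204.9 CPM in the other CD8 T cells, a log2 ratio of 2.46 (1.16 to 3.98). The groups did not overlap, and the other CD8 T cells varied more between sets than members did. Nkg7, a granule gene needed for degranulation, stood at 3608, 1628, 1362 and 2405 CPM against 1558, 797.3, 1175 and 969.0 CPM (1.11, 0.21 to 1.30), so the ranges overlapped between sets. Serpinb9, the granzyme B inhibitor that protects the killer cell, was at 1.15 (0.37 to 1.81), and the proteoglycan gene Srgn at -0.06. Prf1, the perforin gene, was at 0.63 (0.16 to 1.26), with 168 CPM in members of set 3 and 37.5 to 43.2 CPM in the other sets.

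Of 18 transcription factors of exhausted and effector cells, 13 were higher in every set, none was lower in every set, and only Zeb2 was called; the list median was 0.85 (0.48 to 0.91), beside 0.19 over all genes. For comparison, 19.7% of all genes tested were higher in every set and 0.316% were called higher. Nr4a2, an orphan nuclear receptor induced by T cell receptor signals, stood at 639, 1414, 1138 and 331 CPM in members and 170, 818, 916 and 227 CPM in the other CD8 T cells (0.65, 0.31 to 1.85). The differences between sets were larger than the difference between the 2 kinds of cell within a set. Id2, a repressor that supports effector cells, was at 0.94 (0.79 to 1.43), Bhlhe40 at 0.77 (0.45 to 1.64) and Nr4a1 at -0.11 (-0.97 to 1.09). Tox, the factor most tied to exhaustion, was outside the rule for naming and was looked at for its role: it stood at 0.76 (-0.30 to 1.41), lower in members in set 3 only. Zeb2, a repressor in terminal effector cells, was at 1.12 (1.02 to 2.93) and was not called with the all-gene median set to 0.

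Receptors for costimulation followed the same direction, with a list median of 0.64 (0.51 to 0.93) over 12 genes and 1 called (background 0.316%). That gene was Tnfrsf9, which encodes 4-1BB, an activation-induced receptor: 198.8, 142.9, 103.1 and 84.4 CPM against 17.1, 52.7, 27.9 and 21.5 CPM (1.58, 1.29 to 2.94). Every set of members was above every set of the other cells. Il2rb (0.49), Cd7 (1.16), Cd28 (0.38) and Cd27 (0.83) were not called. Of the checkpoint receptors outside the rule only 4 passed the filter and none was called. Ctla4 was the highest of them at 141, 189, 236 and 55.1 CPM against 57.6, 47.4, 158 and 16.5 CPM (1.23, 0.55 to 1.79), followed by Klrc1 (0.37), Cd160 (0.81) and Cd96 (-0.20).

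Homing genes were mixed. Itga1, the alpha chain of the collagen receptor CD49a of resident T cells, was the only one of 14 called (background 0.316%). It stood at 36.8, 44.6, 31.2 and 48.9 CPM against 5.61, 3.83, 0 and 18.8 CPM (1.78, 1.03 to 2.04), with 42 UMIs against 15. Cxcr6, looked at for its role in the liver, stood at 288, 104, 97.7 and 191 CPM against 84.1, 62.3, 52.2 and 24.9 CPM (1.23, 0.65 to 2.52). All 4 sets of members were above those of the other cells for both genes, and how many other genes do so was not counted. Itga1 passed the filter on level only through the members and was not called with the all-gene median set to 0. Among the genes of highest level, Rgs1 was at 0.68, Rgs2 at 0.37, Itgal at 1.09 and Itga4 at 0.21. In the list, 5 were higher in every set (19.7% of all genes were) and 2 lower in every set (5.62% were).

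Ccl5, a chemokine of memory and effector CD8 T cells, was the most abundant gene of the cytokine list at 36556, 15872, 11571 and 25131 CPM in members, against 16389, 9539, 8039 and 8574 CPM (0.95, 0.52 to 1.55). It was higher in each set, but not 2-fold in all of them. Ccl4 was at 0.97 (0.76 to 2.43), Xcl1, which attracts cross-presenting dendritic cells, at 1.35 (0.17 to 2.78), and Ltb at -0.23 (-0.59 to -0.11). None of the 8 cytokine genes tested was called.

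**Figure D2:**
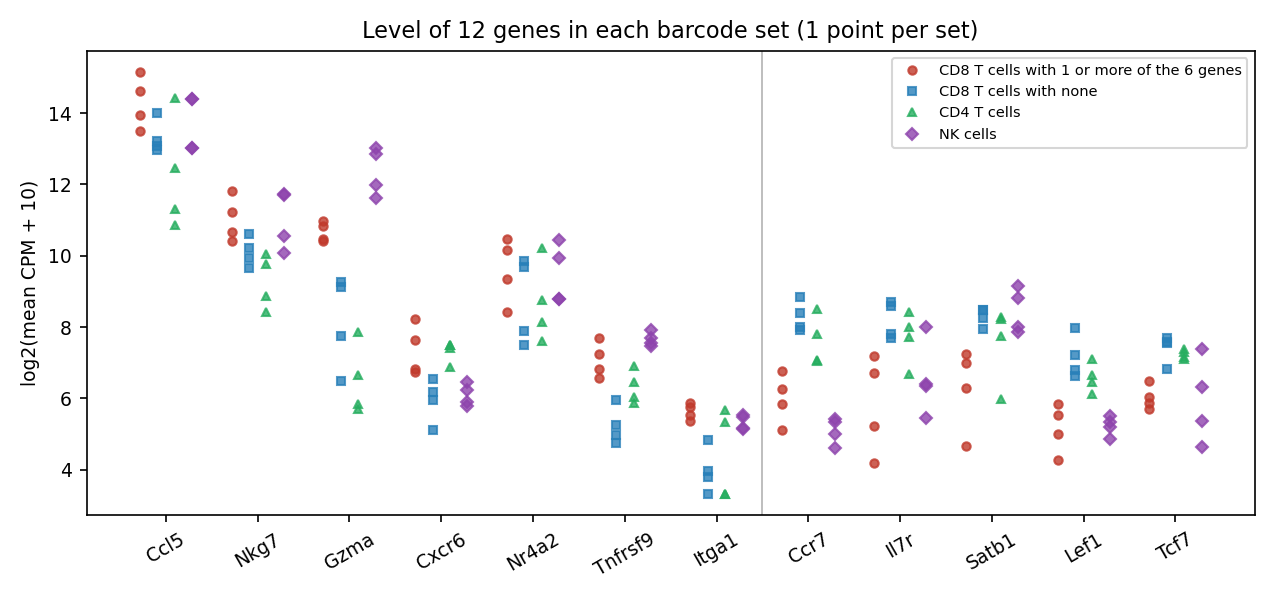
Level of 12 genes, as log2 of the mean CPM plus 10 (y axis), with 1 point per barcode set for the CD8 T cells with 1 or more of the 6 genes, CD8 T cells with none, CD4 T cells and NK cells. Gzma of members lay between CD8 T cells with none and NK cells, and Ccr7, Lef1, Satb1 and Tcf7 of members lay under those of CD8 T cells with none in every set.

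No gene of the remaining 6 lists was called. The 14 NF-kB genes were at 0.17 (0.08 to 0.22), with Tnfaip3 at 0.53 and Nfkbia at -0.80, and with the all-gene median set to 0 this list moved to -0.02. The 13 glycolysis genes were at 0.28, with Gapdh at 0.74 (0.60 to 0.91), the 12 interferon-induced genes at 0.11 and the 17 immediate early genes at -0.18 (-0.54 to -0.00), with Junb at -0.12. The 6 killer lectin-like receptor genes tested were at 0.71 (0.21 to 1.09) and the 13 T cell receptor complex genes outside the rule at 0.46 (0.13 to 0.63), with Trbc2 at 0.89 and Trbc1 at 0.17. Trbc1 and Trbc2 are near-identical in sequence, and how reads were split between them is not given in the sources used here.

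**Figure D3:**
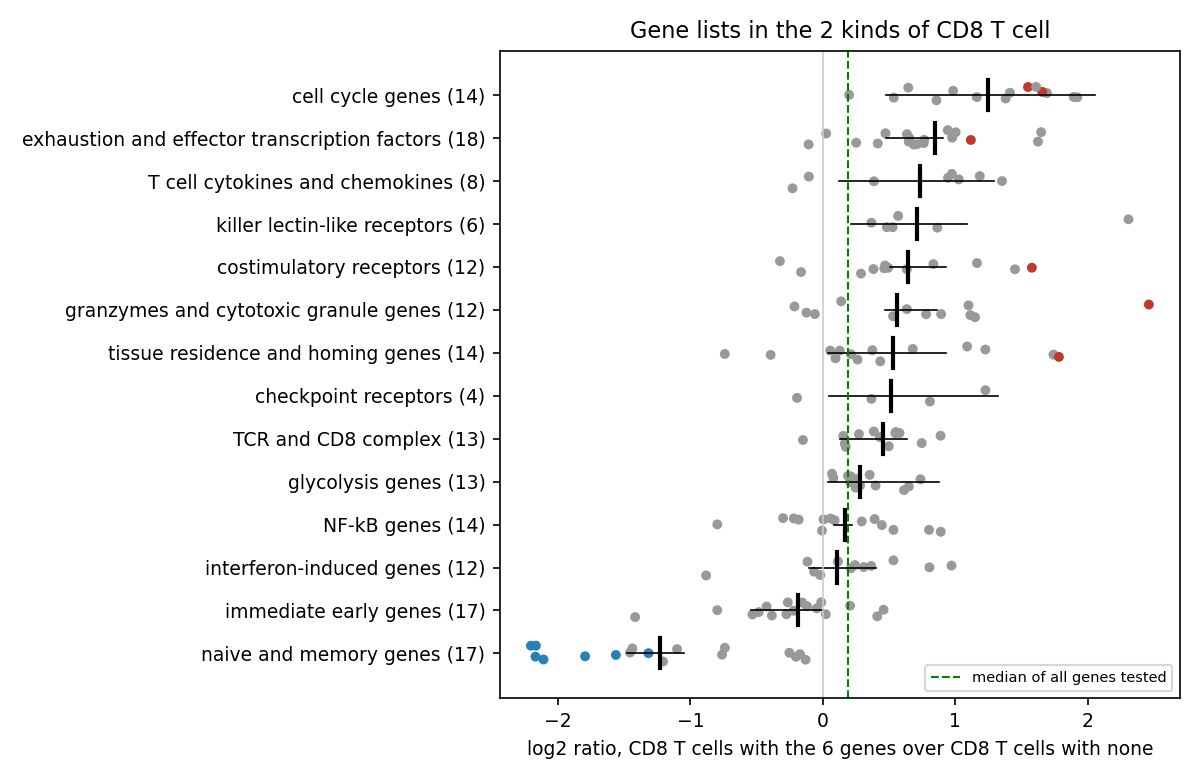
Log2 ratio of each tested gene of 14 lists between CD8 T cells with the 6 genes and CD8 T cells with none (x axis, median over 4 barcode sets; number of genes in brackets), with red and blue points for genes called higher and lower, a thick bar for the list median and a thin line for its lowest to highest set. The naive and memory list had a median of -1.23 and the cell cycle list of 1.25, beside 0.19 over all genes (dashed line). Some points, such as Ccnb2 of the cell cycle list and Itga1 of the homing list, passed the filter only through the members.

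Of the 14 lists in the plot of gene lists, that of the cell cycle had the highest median, 1.25 (0.48 to 2.06). In it 11 of 14 genes were higher in every set (19.7% of all genes were), and Top2a and Ccnb2 were called (background 0.316%). Ccnb2 passed the filter on level only through the members and was not called with the all-gene median set to 0. The median and counts of this list are therefore a description and support nothing. Hmgb2, a chromatin gene of dividing cells, was at 807, 759, 1740 and 795 CPM in members against 305, 543, 578 and 285 CPM (1.41, 0.48 to 1.57). Tubb5 (0.20), Pcna (0.54) and Stmn1 (1.38) were the next most abundant. Outside the list, Ube2c, an enzyme of mitotic exit, was at 37.9, 18.9, 117 and 35.1 CPM against 1.79, 0, 10.7 and 4.07 CPM, and the histone gene Hist1h2ap at 73.3, 156, 343 and 59.1 CPM against 17.02, 57.6, 44.4 and 13.1 CPM. Hells, a chromatin helicase gene, was at 1.79 (1.16 to 2.53). For Ube2c, Hist1h2ap and Hells, set 3 was the highest set of members. The calls of Ube2c and Hells did not hold when cells were thinned to 1000 UMIs before the rule was applied (median log2 ratios -0.14 and -1.23 over 3 sets). The other genes called higher among the leading 10 were Gm45716 (2.25, 1.14 to 2.56), Dapk2, a kinase gene (1.81, 1.11 to 2.96), and the entry Mcub.1, whose suffix marks a repeated symbol so that its identity is uncertain.

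Members that could be cycling were counted by at least 2 of 9 cell cycle genes (Mki67, Top2a, Birc5, Cdk1, Ccnb2, Pclaf, Rrm2, Cdca8 and Ccna2), chosen from the list after its values were seen. Of the 450 members 67 passed (14.9%, 11.7% to 18.5%), of CD8 T cells with none of the 6 genes 10 of 373 (2.68%, 1.29% to 4.88%) and of NK cells 16 of 430 (3.72%, 2.14% to 5.97%). By set, 5.49%, 5.48%, 48.6% and 13.5% of members passed. Set 3 stood far above the rest, with 35 of 72 members (36.7% to 60.7%), whereas its CD8 T cells with none of the 6 genes had 7.35% and its NK cells 3.06%. At 1000 UMIs per cell, with 82 members left out as shallower, the shares were 2.48%, 16.7%, 50% and 5.11% in members of sets 1 to 4 (3 of 18 in set 2) and 0%, 4.35%, 5.26% and 0.690% in CD8 T cells with none. The share of set 3 was therefore also high with counts thinned to 1000 UMIs. The 2 kinds of cell were still those chosen at full depth, so the choice itself was not made at equal depth. In set 3, members had a median of 1966.5 UMIs and CD8 T cells with none of the 6 genes 1056.5. The part of depth in who became a member was not tested for this share. No doublet caller was run, and the part of doublets was not tested.

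**Figure D4:**
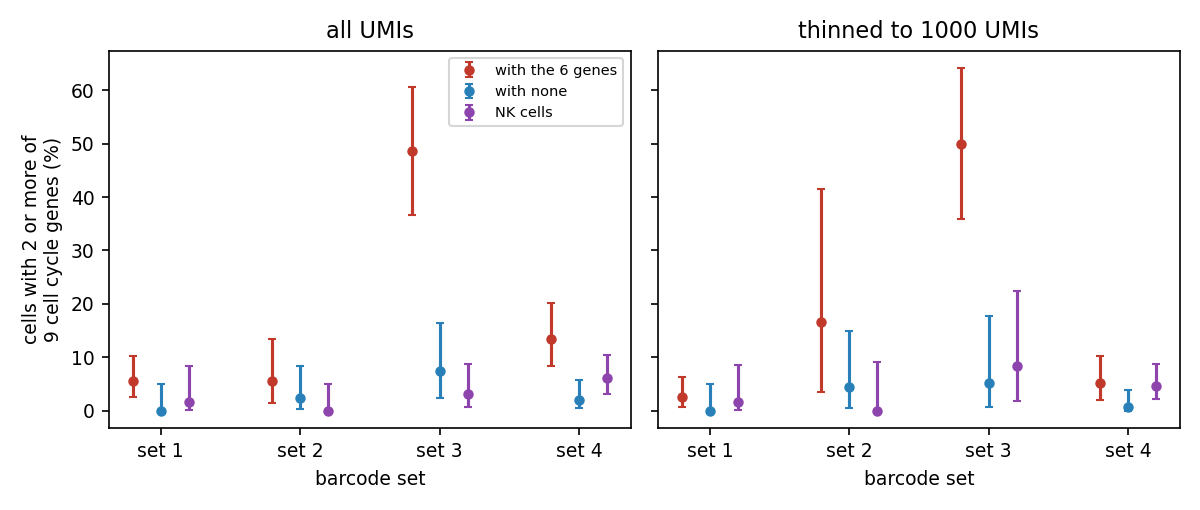
Share of cells with at least 2 of 9 cell cycle genes (y axis, percent, with 95% exact intervals for counting error) in each barcode set, at all UMIs (left) and with cells thinned to 1000 UMIs (right). Members of set 3 stood at 48.6% and 50%, above CD8 T cells with none of the 6 genes and NK cells of the same set.

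Against 179 CD4 T cells (Cd3 and Cd4, no Cd8), members had higher Gzma and 3 more granule genes, with 16 genes called higher in all (0.324%) and 7 lower (0.142%) of 4931, and an all-gene median of 0.03. Gzma led at 4.40 (2.57 to 5.28), with 90.3, 221, 47.9 and 42.0 CPM in CD4 T cells. Of the 12 granule genes tested 4 were called higher (Gzma, Ctsw, Cst7 and Serpinb9) and the list median was 1.47 (0.87 to 2.12). The T-box factor gene Eomes was at 88.4, 458, 68.9 and 45.3 CPM in members and 13.4, 55.7, 0 and 0 CPM in CD4 T cells. Eomes promotes granzyme and memory genes in CD8 T cells. Ly6c2 (2.54, 1.72 to 4.09), Cd7 (1.97, 1.63 to 3.09), Cst7 (1.81), Serpinb9 (1.94) and the myosin gene Myo1f (2.02) were also called. Ccl5 was not called, since set 2 went the other way (2.43, -0.48 to 3.74). Klre1, a lectin-like receptor gene, had 108 UMIs in members and 1 in CD4 T cells, Tcrg-C2, a gamma T cell receptor constant gene, 135 and 2, and Dapk2 53 and 2. The gamma constant gene was thus found in 69 of the members, while Trdc, which marks gamma-delta T cells, had 1 UMI. Klre1, Tcrg-C2, Dapk2, Eomes and Myo1f passed the filter on level only through the members.

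Genes lower than in CD4 T cells included Maf, a factor of helper and regulatory T cells, at 132, 226, 45.1 and 17.4 CPM against 750, 1175, 372 and 87.8 CPM (-2.37, -2.79 to -1.84), Nrp1 (-1.98), Il7r (-1.37), Odc1 (-1.38), Hif1a (-1.25) and Polg (-1.46). Cd40lg, the helper ligand, had 1 UMI in members and 26 in CD4 T cells. Cd40lg, Nrp1 and Polg passed the filter on level only through the CD4 T cells. Ctla4 was lower in every set without being called (-1.02, -1.64 to -0.55). The naive and memory list was at -0.78 (-0.93 to -0.62), with 7 of 17 genes lower in every set (7.22% of all genes were) and Il7r called, while Ly6c2 of the same list was called higher.

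Against 430 NK cells (Ncr1 or Klrb1c, no Cd3 or Cd8b1), members had T cell receptor genes and lower granule and Ly49 receptor genes. Of 5072 genes, 27 were called higher (0.532%) and 75 lower (1.48%), with an all-gene median of -0.07. Since the absence of Cd3 chose the NK cells, the T cell receptor genes follow in part from the rule: Trac was at 4.55 (3.36 to 5.23), Trbc2 at 2.93 and Lat at 2.94. Themis, Cd5 and Tcrg-C2 had 112, 114 and 135 UMIs in members and none in NK cells, and Cd6 had 131 and 1. Like Trac and the entry Rit1.1, these genes passed the filter on level only through the members. Ms4a6b (2.85), the interferon-induced Ifi27l2a (2.80, 1.01 to 3.09) and the entry Rit1.1 (3.28), again a repeated symbol, completed the leading 10. Ctla4 was called higher as well, at 2.00 (1.28 to 4.31).

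Granule genes were lower in members than in NK cells, with 5 of 13 called lower (background 1.48%) and a list median of -0.73 (-0.86 to -0.53). Gzma was at 8293, 3169, 4076 and 7380 CPM in NK cells (-1.54, -2.54 to -1.17), Prf1 at 382, 369, 410 and 559 CPM (-2.97, -3.42 to -1.24), and Serpinb9 was at -1.72. No set of members reached the lowest set of NK cells for Gzma or Prf1, so members lay between the other CD8 T cells and NK cells in Gzma. Nkg7 (0.11, -0.45 to 0.36) and Ccl5 (0.62, 0.21 to 0.94) were not called. Ccl4 (-1.25) and Xcl1 (-2.07) were called lower. Several killer lectin-like receptor genes passed the filter on level only through the NK cells, so no count or median is given for that list. Klra4 had 1 UMI in members and 324 in NK cells, Klra8 0 and 220, Klra3 2 and 107, and the mast cell protease gene Cma1 0 and 135. Klrb1b had 9 and 289, Klra9 18 and 236 and Klri2 6 and 149, and these also passed the filter only through the NK cells. The Klra genes are close copies whose reads may be split between them. Since Ncr1 or Klrb1c chose the NK cells, lower values of NK cell genes in members follow in part from that choice. The adaptor genes Fcer1g (-4.22, -4.43 to -2.47) and Tyrobp (-4.12, -5.47 to -2.61) and the factor gene Irf8 (-4.07) were called lower too. Cell cycle genes were at 0.84 (0.21 to 2.08), with the highest value in set 3, and none was called.

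Within members, the 145 with a Pdcd1 UMI were set against the 305 without, over sets 1, 3 and 4, since set 2 had 18 Pdcd1-positive members. Median depth in sets 1, 3 and 4 was 2869.5, 3208 and 3882 UMIs with Pdcd1 and 3991, 1458 and 2590.5 without. This comparison was not run on thinned cells, so the part of depth was not tested. Of 4812 genes 6 were called higher (0.125%) and 14 lower (0.291%), and the all-gene median was -0.00 over the 3 sets (0.14 in set 1). With each set's all-gene median set to 0 the calls were 3 higher and 16 lower. Ctla4, another checkpoint receptor gene, was higher beside Pdcd1 at 239, 359 and 114 CPM against 56.1, 166 and 42.3 CPM in sets 1, 3 and 4 (1.25, 1.07 to 1.91). Klf2, the factor that keeps T cells circulating through S1pr1, was lower at 93.8, 17.1 and 279 CPM against 336, 317 and 715 CPM (-1.73, -3.59 to -1.33). Jun, an AP-1 subunit gene, was at -1.60 (-3.01 to -1.10), and Il18rap, a subunit of the interleukin-18 receptor, at -1.56 (-2.74 to -1.37). Both rest on few molecules in members with Pdcd1, with 14 UMIs of Jun against 135 and 5 of Il18rap against 31. The naive and memory list was at -0.90 (-1.18 to -0.32), with 6 of 16 lower in every set (11.4% of all genes were) and 1 called, and the 6 killer lectin-like receptor genes at -1.01 (-1.45 to -0.67), with 4 lower in every set and none called. Gzma went both ways (-1.72, -3.37 to 1.37), and so did Nr4a2 (0.03, -0.94 to 1.43). The set medians of the 18 transcription factors ran from -0.46 to 0.50, so members with Pdcd1 did not have higher levels of this list in every set.

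Some of the genes called there are not T cell genes or rest on few molecules. S100a8 and S100a9, neutrophil genes, had 2723 and 2134 UMIs in members without Pdcd1 against 35 and 27 in those with it, and 1 member alone held 1800 UMIs of S100a8. Apoa2, a hepatocyte gene, was called higher (1.45, 1.12 to 1.68). The part of RNA from neutrophils and hepatocytes in these calls was not tested. Of the remaining genes, Pms2 (1.82) had 18 UMIs against 5, Med14 11 against 10, Hip1r 22 against 18 and Nrgn 55 against 16, and Dlgap4 7 against 39, Gpatch4 8 against 25, Gm5547 7 against 33, BC030336 8 against 25 and Sh3bp5 2 against 40.

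The 171 members with Gzmb but no Gzmk were set against the 89 with Gzmk but no Gzmb. Only set 1 had 20 cells of each (50 and 38), so the comparison has no check in another set: of 4121 genes, 557 stood 2-fold or more above (13.5%) and 250 as far below (6.07%), or 416 and 339 with the all-gene median set to 0. In set 1, Ccl4 was at 2150 CPM in Gzmb-only and 124 CPM in Gzmk-only members and Gzma at 2103 and 161 CPM. Xcl1 stood at 1355 and 183 CPM, whereas Ccl5 was alike at 29861 and 32958 CPM. Eomes went the other way, at 35.5 and 113 CPM. With sets of at least 15 cells of each kind, a limit chosen after the data were seen, sets 1, 2 and 4 gave 53 genes higher and 8 lower. Elane, Prtn3, Mpo and Ctsg, genes of immature neutrophils, were among the largest differences of set 1 and came from 1 or 2 cells, and the haemoglobin gene Hbb-bt was at 126 and 1705 CPM.

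One T cell receptor variable segment was found in a group of members of set 1. Segments were surveyed after the data were seen, and 10 Trav and Trbv genes were in the table. Trav3-3 (14:53665929-53666506, plus strand, GENCODE vM21 on GRCm38, a T cell receptor V gene) had a UMI in 17 of the 164 members of set 1 (10.4%) and in none of the 73, 72 and 141 members of the other sets, which allows shares of up to 4.11%, 4.17% and 2.13%. These limits concern cells with a UMI and not cells expressing the segment, and members of set 2 were the shallowest. None of the 373 CD8 T cells without the 6 genes held it. Over all cells the segment was found in 23 cells of set 1 and in 1, 2 and 1 cells of sets 2 to 4. Of the 10 cells with it that were no members, 9 held a Cd3 gene and 5 held Cd79a, which the rule leaves out. V segments have close copies, and the share of reads that could be assigned to Trav3-3 is not known.

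These 17 cells were set beside the 147 other members of set 1 for genes that had no part in finding them, at a like depth (medians of 3463 and 3385 UMIs). Cxcr6 had a UMI in 15 of 17 against 50 of 147, Nr4a2 in 17 against 96, Cd7 in 16 against 89 and Tox in 8 against 27. Tcrg-C2 was found in 12 against 33, and Gzma in 10 against 41. Trbc1 had a UMI in only 1 of the 17 but in 78 of the 147, while Trbc2 was in 17 of 17 and 145 of 147. Il7r was in 1 of 17 against 43 of 147, and Ly6c2 in 4 against 74. Of the choosing genes, Pdcd1 was in 15 of 17 against 61 of 147, Lag3 in 14 against 37, Gzmk in 9 against 87 and Gzmb in 8 against 100. The choosing genes support nothing here, and Tigit and Havcr2 were in 0 and 1 of the 17. No test was made, because the group was found in these data. Trav16 had a UMI in 6 other members of set 1, none of which held Trav3-3.

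**Figure D5:**
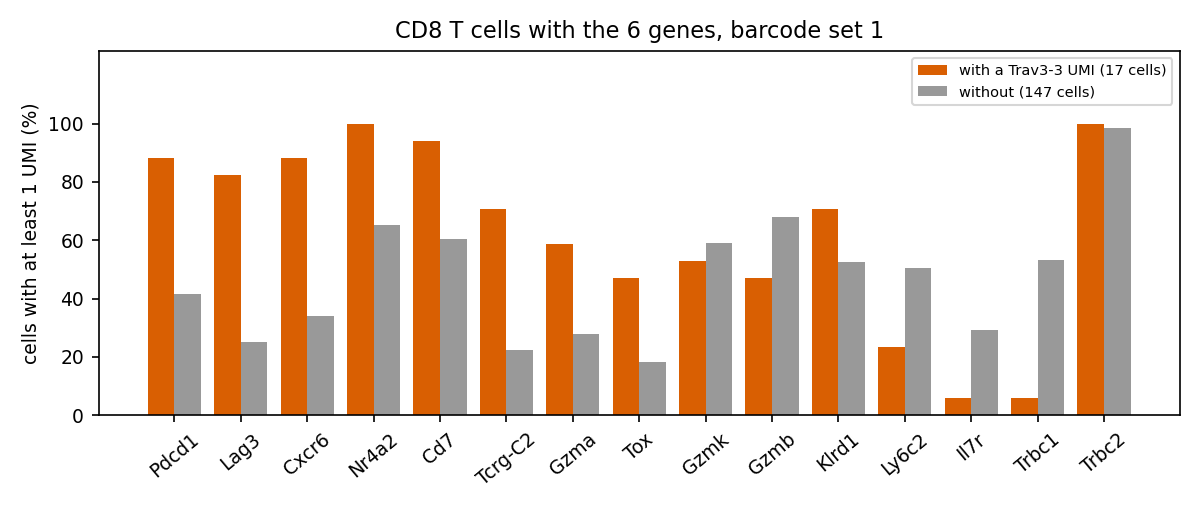
Share of members of barcode set 1 with at least 1 UMI of each gene (y axis, percent), in the 17 with a Trav3-3 UMI and the 147 without. Cxcr6 was detected in 15 of the 17 and in 50 of the 147, and Trbc1 in 1 of the 17 and in 78 of the 147; Pdcd1, Lag3, Gzmk and Gzmb chose the cells.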

How the data were processed

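Livers were digested and libraries made with the 10x Genomics Single Cell 3' kit, per the labels' protocols. CASAVA 1.8, Cell Ranger, Seurat and the mm10 genome are named in the submitters' processing notes; the sources used here do not give filters on cells and genes or the treatment of doublets. The authors deposited natural log values, ln(1 + UMIs per 10000 UMIs of the cell). Whole UMIs were recovered from them (100% of values above 0, tolerance 0.001). The table counted as 1 pooled sample: its 24802 cell columns could not be mapped to samples. The test planned between genotypes was therefore not run.

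Levels, log2 ratios and calls were computed as the text defines them with Python 3.11.15, numpy 2.4.6, scipy 1.17.1, pandas 2.3.3 and matplotlib 3.10.9. The members and the gene lists were chosen with earlier results of these data known. Genes named were those of the rule, up to 4 of the highest level in a list, and up to 10 called in each direction; some genes are counted in their lists but not reported by name here, and others are said to be chosen for their role or after their values were seen. Of 17813 symbols, 17557 (98.6%) matched GENCODE vM21. No cell was removed. In data simulated for the comparison with CD8 T cells lacking the 6 genes (4553 genes past the filter), 4-fold changes were recovered in 50.0% of 200 genes. Of these 162 passed the filter, and at 100 CPM or more 90.5% of 42 were recovered. None of 4391 unchanged genes was called. All simulated cells shared a common profile apart from these changes, at the real depths. Variation between cells and sets was thus left out, and the rate of false calls in the real data was not measured. Alternatives were another pseudocount (50 CPM), filter (none or 100 CPM), summed UMIs, deeper, thinned or marker-free cells, and each set left out.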

Additional observations from a re-analysis of the deposited data

Results flagged for a closer look

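Each of 11 values with 1 reading per barcode set was checked for a set far from the other 3 (a gap to the nearest set that takes up most of the whole range, by Dixon's limit for 4 values), which chance alone gives in about 1 in 20 such groups, and 2 were found. Members made up 6.37% of all cells of set 1, with a gap of 0.939 of the range. A Trav3-3 UMI was found in 10.4% of the members of set 1 and in no member of the other sets, a gap of 1.0 of the range; since the segment was picked after its values were seen, for its presence in set 1, that gap restates the observation and the chance rate does not apply to it. Outside the members of set 1 the segment was found in 10 cells, of which 1, 2 and 1 were in sets 2 to 4. The sets cannot be tied to samples or genotypes, so what sets set 1 apart was not tested.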

How the results depend on the processing

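No paired analysis was possible because the barcode suffixes cannot be matched to the samples or their replicate numbers; kinds of cell were compared within each set. The number of genes called was 24 against CD8 T cells with none of the 6 genes, 23 against CD4 T cells, 102 against NK cells, 20 by Pdcd1 and 807 by Gzmb and Gzmk. In that order it was 4, 6, 36, 1 and 76 with a pseudocount of 50 CPM and 5, 10, 41, 5 and 55 with a filter at 100 CPM. With cells of at least 1000 UMIs it was 51 and 63 against CD8 and CD4 T cells. Leaving out each set in turn gave 41 to 51, 58 to 77, 121 to 179 and 20 to 192 calls, and fewer sets make the condition of every set easier to meet; by Gzmb and Gzmk all calls came from set 1 (807 to 807), without which no value was left. Cells thinned to 1000 UMIs gave 107 calls against CD8 T cells and 183 against NK cells. Cells without 7 markers of other cells gave 448 calls over 2 sets against CD8 T cells and 1504 over 1 set by Pdcd1; without regard to Alb, an alternative chosen after the data were seen, the first was 39, of which 13 were among the 24. Summed UMIs gave 9 calls by Pdcd1 and 524 by Gzmb and Gzmk, which gave 2119 with no filter. With sets of 15 cells, also chosen after the data were seen, calls were 9 by Pdcd1 and 61 by Gzmb and Gzmk. The share of members, 1.81%, was 2.18% at 1000 UMIs or more, 1.53% with Cd8b1 required, 1.18% with at least 2 UMIs for Cd3 and 2 for Cd8, and 1.12% when thinned. Values with the other sign were, against CD8 T cells, NF-kB genes at -0.020 with the all-gene median at 0, and Ube2c at -0.14 and Hells at -1.23 when thinned; against CD4 T cells, cytokine genes (-0.07) at 0.80 with a filter at 100 CPM, 0.25 with summed UMIs, 0.18 at 1000 UMIs or more and, with a set left out, from -0.48 (set 3) to 0.15 (set 2); against NK cells, costimulatory receptors at 0.0236 with summed UMIs; by Pdcd1, glycolysis genes (0.03) from -0.047 (set 1 left out) to 0.17 (set 3 left out) and -0.42 without cells holding other markers, checkpoint receptors (0.25) from -0.22 (set 3 left out) to 0.92 (set 4 left out), and, without cells holding other markers, residence genes at -0.38 and immediate early genes at 0.0100. The causes were not tested. With those just named included, of the values of single genes 769 stayed within the spread over sets, 112 moved further and 2 changed sign; of lists, 384, 49 and 11. Against CD4 T cells, and by Gzmb and Gzmk, cells without other markers left too few cells for a value. Genes under 100 CPM are the most limited by depth.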
